A study of Mus musculus with 7 samples.

Results

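Primary granules are the first storage granules that a developing neutrophil makes, at the promyelocyte stage in the bone marrow. They carry serine proteases and myeloperoxidase, and their transcripts are shut down before the cell matures and moves on to later granules, so the transcripts mark young granulocytes while the proteins persist in the finished cell. The genes of this stage followed here numbered 7, and all were found among the 56854 gene identifiers listed for every library: Elane, Prtn3 and Ctsg, which encode serine proteases of the granule, Mpo, which encodes myeloperoxidase, Ms4a3, which encodes a membrane protein of the same stage, and the transcription factor genes Cebpe and Gfi1. They were chosen by symbol and matched between files by Ensembl identifier.

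Whole shoulder joints were taken from 7 mice 2 weeks after repair of the supraspinatus tendon, a tendon of the rotator cuff, in the left shoulder. Messenger RNA was sequenced from 3 wild-type mice and from 4 Tnc-/- mice, which carry a deletion of tenascin C, a glycoprotein of the extracellular matrix. Both groups had the same operation, so the comparison asked how the repaired joint differed with and without tenascin C. Strain, sex, age and how the allele was made are not given in the sources used here, nor is it stated how much marrow-bearing bone each dissection held.

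Levels are in CPM, counts relative to the library size after TMM scaling (a scaling that assumes most genes do not differ), and differences are log2 fold changes of Tnc-/- over wild type with their standard error (SE), tested in edgeR and called at an adjusted p under 0.05. The libraries held 13464057 to 18503833 gene counts in wild type and 19250322 to 28191101 in Tnc-/-. Tnc was at 292 to 437 CPM in wild type and 33.4 to 55.0 CPM in Tnc-/-, which is -3.08 on the log2 scale (SE 0.21; adjusted p = 2.8e-04 in edgeR) and in the direction of the labels. The files of the 2 genotypes listed different sets of identifiers, and whatever lies behind that difference cannot be told apart from genotype. Wild-type libraries 2 and 3 stood apart from the other 5: genes for smell and pheromone receptors, which a joint is not known to use, took 1564 and 1112 CPM of the library totals there, against 89.8 in wild-type library 1 and 33.3 to 41.5 in Tnc-/-. The origin of these reads, genomic DNA included, was not tested, and it bears on every count of wild-type libraries 2 and 3. Results are therefore also given without wild-type library 1, without wild-type libraries 2 and 3, and with the log2 level of these receptor genes as a covariate in the model, called the background covariate below. Of the joint's own tissues, muscle (Acta1), tendon (Tnmd) and cartilage (Col2a1) markers were present in every library, while the tendon factor gene Scx was listed at 0 in all 7.

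All 7 genes had a higher mean in Tnc-/- than in wild type, by 1.75 times for Elane to 3.16 times for Cebpe, and 2 of them, Cebpe and Prtn3, passed the test. Of all 17791 genes tested, 10.3% were called higher in Tnc-/- and 29.0% were called in either direction, so 2 of 7 is to be read against 10.3%. The median log2 fold change of the 7 genes was 0.99, beside -9.0e-04 over all tested genes. All 7 passed the filter on low counts. The size of the difference turned on which wild-type library was the reference. The Tnc-/- mean stood 1.06 times (Ctsg) to 2.05 times (Cebpe) above wild-type library 1, but 2.55 times (Elane) to 4.73 times (Gfi1) above the mean of wild-type libraries 2 and 3. In whole tissue, fewer cells of a type and less RNA per cell cannot be told apart.

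The 3 serine proteases are neutral proteases that are stored active in the granule and released onto ingested microbes and into the surrounding matrix. Elane (ENSMUSG00000020125), neutrophil elastase, had levels of 233, 93.0 and 103 CPM in the wild-type libraries, numbered 1 to 3, and of 362, 189, 231 and 217 CPM in the Tnc-/- libraries, numbered 1 to 4. The groups overlapped, since wild-type library 1 lay above 3 of the 4 Tnc-/- libraries and only Tnc-/- library 1 stood clear of it. The means were 143 ± 78.3 CPM (SD, n = 3) and 249.7 ± 76.5 CPM (SD, n = 4), with a log2 fold change of 0.80 (SE 0.36) that did not pass the test (edgeR, adjusted p = 0.122). Prtn3 (ENSMUSG00000057729), proteinase 3, was at 173, 88.3 and 68.6 CPM in wild type and at 341, 195, 221 and 223 CPM in Tnc-/-. Here every Tnc-/- library lay above every wild-type library, as was so for 17.7% of all tested genes, with the gap between wild-type library 1 and Tnc-/- library 2 the narrowest. Prtn3 rose from 110.0 ± 55.4 CPM (SD, n = 3) to 245 ± 64.95 CPM (SD, n = 4), which is 1.15 on the log2 scale (SE 0.33; adjusted p = 0.0324 in edgeR). That call was lost when any library but wild-type library 1 was left out, with log2 fold changes from 0.91 to 1.25 and adjusted p (edgeR) from 0.0530 to 0.115, and it was lost at 0.50 (0.286) without wild-type libraries 2 and 3.

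Ctsg (ENSMUSG00000040314), cathepsin G, a chymotrypsin-like protease, was at 58.0, 21.2 and 21.1 CPM in wild type and at 85.3, 49.5, 57.1 and 54.4 CPM in Tnc-/-. Wild-type library 1 again lay above Tnc-/- libraries 2, 3 and 4. The means were 33.5 ± 21.3 CPM (SD, n = 3) and 61.6 ± 16.1 CPM (SD, n = 4), and the log2 fold change of 0.88 (SE 0.38) did not pass the test (edgeR, adjusted p = 0.112). Mpo (ENSMUSG00000009350) encodes the haem enzyme that makes hypochlorous acid from hydrogen peroxide and chloride. Mpo was at 241, 96.6 and 96.1 CPM in wild type and at 396, 224, 261 and 265 CPM in Tnc-/-. Wild-type libraries 2 and 3 were less than 1 CPM apart, and wild-type library 1 lay above Tnc-/- library 2 but below the other 3. With library totals, wild-type library 1 stood at 242.5 CPM, above Tnc-/- libraries 2 (205.9) and 4 (242.2) and just under library 3 (242.7). The means were 144.5 ± 83.5 CPM (SD, n = 3) and 287 ± 75.1 CPM (SD, n = 4), with a log2 fold change of 0.99 (SE 0.36) short of the threshold (edgeR, adjusted p = 0.0685; DESeq2, adjusted p = 0.0238). Ms4a3 (ENSMUSG00000024681), whose protein spans the membrane and is used to trace granulocyte and monocyte progenitors, was at 29.2, 12.1 and 11.8 CPM in wild type and at 46.2, 26.9, 31.0 and 29.8 CPM in Tnc-/-. Its order over the 7 libraries was nearly that of Mpo, with wild-type library 1 between Tnc-/- libraries 2 and 4. With library totals, wild-type library 1 was at 29.4 CPM for Ms4a3, above Tnc-/- libraries 2, 3 and 4 at 24.7, 28.8 and 27.2 CPM. The means were 17.7 ± 9.95 CPM (SD, n = 3) and 33.5 ± 8.63 CPM (SD, n = 4), and the log2 fold change of 0.92 (SE 0.35) did not pass the test (edgeR, adjusted p = 0.0810).

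The transcription factors are less abundant than the granule proteins and take part in the passage from promyelocyte to later stages. Cebpe (ENSMUSG00000052435), C/EBP epsilon, is needed for the change from promyelocyte to myelocyte and for the genes of secondary granules. Cebpe was at 19.4, 11.2 and 7.23 CPM in wild type and at 46.4, 32.5, 43.4 and 37.3 CPM in Tnc-/-. The groups were well apart, with the lowest Tnc-/- library 1.67 times above the highest wild-type library. Cebpe rose from 12.6 ± 6.22 CPM (SD, n = 3) to 39.9 ± 6.23 CPM (SD, n = 4), which is 1.66 on the log2 scale (SE 0.32; adjusted p = 0.00896 in edgeR). It was the 1 gene of the 7 whose call held whichever of the 7 libraries was left out, with log2 fold changes from 1.38 to 2.21 and adjusted p (edgeR) up to 0.0343. Gfi1 (ENSMUSG00000029275), a zinc finger repressor needed for neutrophil rather than monocyte fate, was at 9.50, 1.40 and 3.16 CPM in wild type and at 13.5, 8.13, 11.9 and 9.57 CPM in Tnc-/-. Its wild-type values rested on few reads, 177, 21 and 52 counts, and spread more widely relative to their mean than those of the other 6 genes. The means were 4.68 ± 4.26 CPM (SD, n = 3) and 10.8 ± 2.38 CPM (SD, n = 4), with a log2 fold change of 1.20 (SE 0.59) that did not pass the test (edgeR, adjusted p = 0.159).

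**Figure D1:**
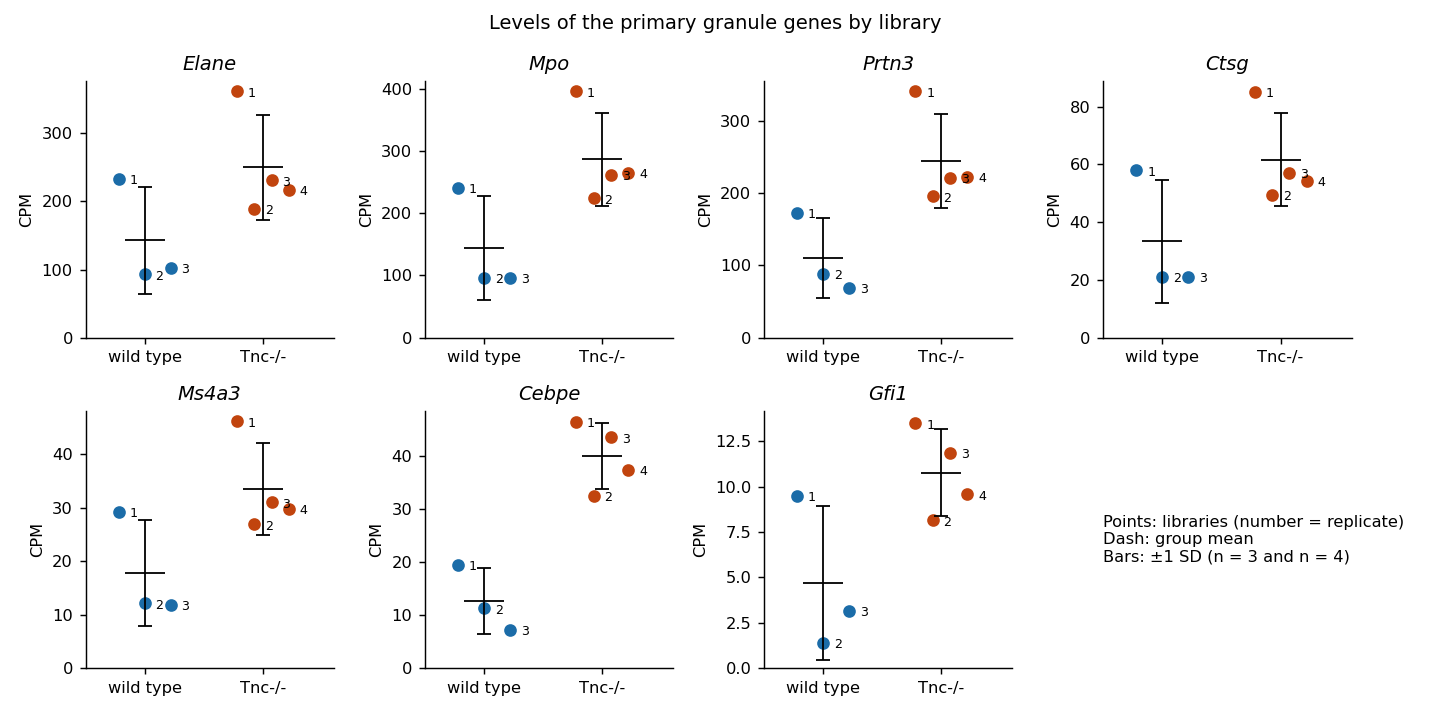
CPM of each of the 7 primary granule genes (vertical axis, 1 panel per gene) in the 3 wild-type and 4 Tnc-/- libraries; points are libraries with their replicate number, dashes are group means and bars are 1 SD. The groups do not overlap for Prtn3 and Cebpe, and wild-type library 1 is the highest wild-type library in every panel, at 233 CPM for Elane against 93.0 and 103 CPM.

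The same 2 libraries led every gene. Wild-type library 1 was 2.10 times (Cebpe) to 4.17 times (Gfi1) above the mean of wild-type libraries 2 and 3, and Tnc-/- library 1 was 1.23 times (Cebpe) to 1.70 times (Elane) above the mean of Tnc-/- libraries 2 to 4. Over the 7 libraries, the Pearson correlation of each gene's log2 level with the mean of the other 6 ran from 0.920 for Cebpe to 0.997 for Mpo. These values describe libraries that share their depth and scaling and the difference between genotypes. The CPM of the 7 genes summed to 763, 324 and 311 in wild type and to 1289, 726, 857 and 836 in Tnc-/-, a ratio of means of 1.99. Wild-type library 1 lay above Tnc-/- library 2 in this sum, and leaving out wild-type library 1 raised the ratio to 2.92. Leaving out any of the other 6 libraries gave 1.71 to 2.13, and scaling by library totals gave 1.75. With library totals the overlap was wider, since wild-type library 1 stood at 769 CPM, above Tnc-/- libraries 2 (667) and 4 (763). Elane, Mpo and Prtn3 together made up most of the sum in every library, with Mpo at 29.8 to 31.7%, Elane at 26.0 to 33.1% and Prtn3 at 22.1 to 27.3%.

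The fits with fewer libraries put numbers on this dependence. Without wild-type library 1, all 7 genes were called higher, where 24.3% of the 21989 genes tested were, with log2 fold changes from 1.44 (Elane) to 2.32 (Gfi1). Without wild-type libraries 2 and 3, only Cebpe was called, at 1.03 (SE 0.22, edgeR, adjusted p = 0.0285), where 2.53% of 18530 genes were called higher. The other 6 then lay between 0.083 (Ctsg) and 0.50 (Prtn3), with adjusted p (edgeR) from 0.286 to 0.878. In that fit wild type was 1 library, assumed to vary like the Tnc-/- libraries. With the background covariate, 1.10% of all tested genes were called higher and none of the 7 was (edgeR; 0 at an unadjusted p under 0.05). The log2 fold changes of Elane, Mpo, Ctsg, Ms4a3 and Gfi1 turned negative (-0.51 to -0.12), and Cebpe and Prtn3 stood at 0.77 and 0.22. In the edgeR fit to all libraries the unadjusted p was under 0.05 for 5 of the 7 genes, against 17.5% of all tested genes that had such a p and were higher in Tnc-/-. DESeq2 called 3 of the 7 higher, against 10.3% of all genes it tested, and limma voom called 1, against 3.97%. The covariate follows genotype in part, since the 2 high libraries are both wild type, so what it removes from the genotype difference cannot be told apart from background.

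**Figure D2:**
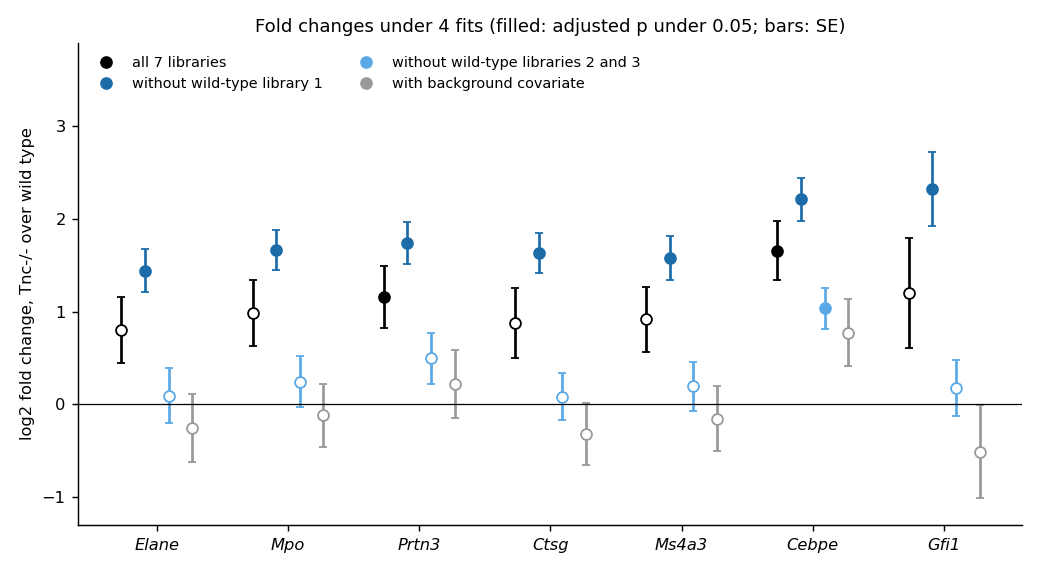
Log2 fold change of Tnc-/- over wild type (vertical axis) of the 7 genes in 4 edgeR fits; bars are standard errors and filled points have an adjusted p under 0.05. Every gene lies highest without wild-type library 1, from 1.44 to 2.32, and Cebpe is the highest of the 7 in the fit without wild-type libraries 2 and 3, at 1.03.

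The composition of the group was examined next by dividing each gene's count by the Mpo count of the same library, which cancels depth and scaling. This measure was chosen after the levels had been seen. With 3 against 4 libraries an exact two-sided permutation test cannot give a p below 0.0571, so the 6 ratios are described without a test. The share of all genes whose ratio to Mpo does not overlap between the genotypes was not worked out. A lack of overlap below therefore has no share to stand against. Ctsg held a nearly constant proportion to Mpo, at 0.241, 0.220 and 0.220 in wild type and 0.215, 0.221, 0.218 and 0.205 in Tnc-/-. Ms4a3 was at 0.121, 0.125 and 0.123 in wild type and 0.117, 0.120, 0.119 and 0.112 in Tnc-/-, lower in all 4 Tnc-/- libraries by a log2 difference of -0.076. Elane was at 0.969, 0.964 and 1.07 counts per Mpo count in wild type and at 0.913, 0.846, 0.882 and 0.819 in Tnc-/-, a log2 difference of -0.21. Elane thus stood lower against Mpo in every Tnc-/- library, although its mean level was higher in Tnc-/-. Cebpe was at 0.0807, 0.116 and 0.0752 in wild type and 0.117, 0.145, 0.166 and 0.141 in Tnc-/-, a log2 difference of 0.66, with wild-type library 2 and Tnc-/- library 1 almost touching. Prtn3 ranged from 0.714 to 0.915 in wild type and from 0.839 to 0.872 in Tnc-/-, and Gfi1 from 0.0145 to 0.0394 and from 0.0341 to 0.0454, so both overlapped.

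**Figure D3:**
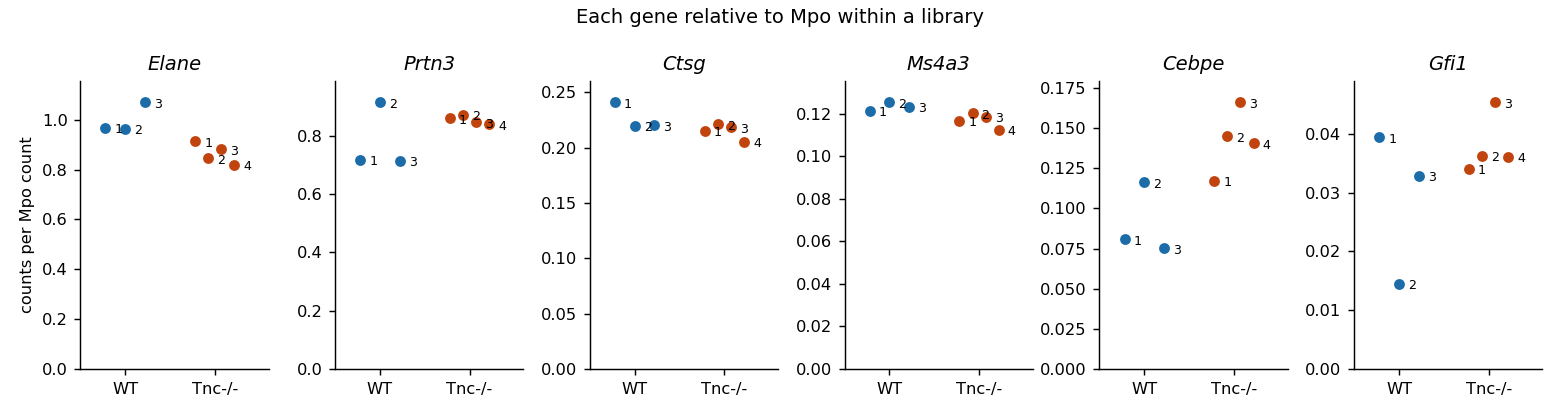
Counts of 6 primary granule genes per count of Mpo (vertical axis, from 0) in each library, with replicate numbers beside the points. Cebpe lies at 0.0752 to 0.116 in wild type and 0.117 to 0.166 in Tnc-/-, Elane lies lower in Tnc-/-, and Ctsg and Ms4a3 stay within narrow bands.

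Per kb of exon, which allows levels to be set against each other between genes, the order was Elane, Prtn3, Mpo, Ctsg, Cebpe, Ms4a3 and Gfi1 in 6 of 7 libraries. In wild-type library 3 Ms4a3 lay above Cebpe. In Tnc-/- the level per kb was 254 ± 77.8 CPM for Elane, 141 ± 37.5 for Prtn3, 83.7 ± 21.9 for Mpo, 59.6 ± 15.6 for Ctsg, 32.2 ± 5.02 for Cebpe, 17.8 ± 4.58 for Ms4a3 and 3.38 ± 0.748 for Gfi1 (SD, n = 4). In wild type the same order of means ran from 145 ± 79.6 for Elane to 1.47 ± 1.34 for Gfi1 (SD, n = 3), with Cebpe at 10.2 ± 5.01 and Ms4a3 at 9.40 ± 5.28. Across libraries of a group, the ranges of neighbours overlapped from Elane down to Ctsg in both genotypes. The ranges of Ctsg and Cebpe, and those of Ms4a3 and Gfi1, were apart in both genotypes, while those of Cebpe and Ms4a3 were apart in Tnc-/- and overlapped in wild type.

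The sequences just upstream of the granule protein genes are shown because these genes moved together over the libraries and their promoters are a known meeting point of myeloid factors. RefSeq promoter entries (build GRCm38.p6) were found for 6 of the 7 genes, Cebpe being the exception, and the 250 bases before each start were searched on both strands. The letters searched for PU.1, the factor that commits progenitors to the myeloid fate, were GAGGAA. For MYB, a factor of dividing progenitors, they were AACNGNC, and for the C/EBP family, which drives granule genes, TTNCNNAA. RUNX factors were searched as TGTGGT, the repressor GFI1 as AATCNNNGC, and the GATA factors of red cells and mast cells as AGATAA. Capitals mark the matches of any of these. No match overlapped another. Elane, chr10:79886062-79886311, plus strand, and Prtn3, chr10:79879417-79879666, plus strand, are neighbours on chromosome 10. Mpo lies at chr11:87793534-87793783, plus strand, and Ctsg at chr14:56102575-56102824, minus strand.
Elane: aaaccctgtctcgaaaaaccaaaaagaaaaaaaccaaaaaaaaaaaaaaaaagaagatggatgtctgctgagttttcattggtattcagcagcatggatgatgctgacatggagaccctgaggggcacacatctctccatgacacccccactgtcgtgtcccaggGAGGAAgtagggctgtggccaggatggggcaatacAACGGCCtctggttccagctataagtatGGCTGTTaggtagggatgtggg
Prtn3: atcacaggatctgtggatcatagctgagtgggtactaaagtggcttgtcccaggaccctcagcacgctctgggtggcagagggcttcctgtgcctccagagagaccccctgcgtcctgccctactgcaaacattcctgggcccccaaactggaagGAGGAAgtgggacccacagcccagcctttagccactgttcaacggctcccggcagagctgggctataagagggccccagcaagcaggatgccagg
Mpo: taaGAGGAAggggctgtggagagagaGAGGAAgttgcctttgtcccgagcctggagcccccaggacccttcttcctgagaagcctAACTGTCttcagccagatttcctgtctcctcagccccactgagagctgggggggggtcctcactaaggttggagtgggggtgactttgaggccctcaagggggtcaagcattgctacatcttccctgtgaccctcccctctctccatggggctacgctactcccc
Ctsg: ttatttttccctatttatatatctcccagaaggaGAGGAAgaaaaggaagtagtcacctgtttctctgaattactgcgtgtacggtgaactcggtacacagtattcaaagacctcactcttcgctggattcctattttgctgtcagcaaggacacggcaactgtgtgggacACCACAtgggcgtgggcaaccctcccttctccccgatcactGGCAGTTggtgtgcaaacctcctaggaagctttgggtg

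The PU.1 letters stood in all 4 of these windows and in neither Gfi1 nor Ms4a3, against 23.3% of 32851 promoters of the same length. The PU.1 matches began at -85 in Elane, at -95 in Prtn3, at -247 and -224 in Mpo and at -216 in Ctsg, counted in bases from the start site. The MYB letters were found in Ctsg, Elane and Mpo (27.7% of promoters) and the RUNX letters in Ctsg (14.0%). The C/EBP letters were found in Gfi1 and Ms4a3 (36.8%), and the GFI1 (8.87%) and GATA (9.99%) letters in none of the 6. Gfi1 has a pair of start sites in the table and so a second window in which to match. A match describes letters in this window and not binding.

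Genes next to the members were read for shared reads and regional change. Of 11 such protein-coding genes that are not members, 9 were tested, 1 was called higher and 1 lower. Of all tested genes 10.3% were called higher and 18.7% lower. In the GENCODE M21 annotation, exons of Plppr3 on the opposite strand cover 9.18% of the exon length of Prtn3, those of A430072P03Rik 3.17% of Gfi1 and those of Gm11505 14.95% of Mpo. Whether counting used strand is not given in the sources used here, so reads in these overlaps cannot be told apart. Gm11505 was listed at 0 in all 7 libraries and A430072P03Rik at no more than 15 counts, while Plppr3 stood at 0.29 on the log2 scale (SE 0.36; adjusted p = 0.575 in edgeR), so Plppr3 did not pass the test that Prtn3 passed. Elane and Prtn3 share their stretch of chromosome 10 with Cfd, complement factor D, a gene of fat cells. Cfd was at 110, 293 and 113 CPM in wild type and 184, 253, 231 and 160 CPM in Tnc-/-, which is 0.27 on the log2 scale (SE 0.35; adjusted p = 0.599 in edgeR). Mcpt8, a basophil protease gene beside Ctsg, was at 0.11 (SE 0.36, edgeR, adjusted p = 0.839). Not called and below 0 were Ms4a2, beside Ms4a3, at -0.44 (SE 0.52, edgeR, adjusted p = 0.554) and Rpap2, beside Gfi1, at -0.46 (SE 0.35, adjusted p = 0.340). Beside Cebpe, Slc7a8, an amino acid transporter gene, was at 0.45 (SE 0.18, edgeR, adjusted p = 0.0910), with 16.9 to 25.2 CPM in wild type and 25.7 to 31.2 CPM in Tnc-/-, so its groups did not overlap with TMM scaling, though they did with library totals. Beside Mpo, the related peroxidase gene Lpo was at 2.44 (SE 0.98, edgeR, adjusted p = 0.0905) on no more than 22 counts in any library, also without overlap. Every Tnc-/- library lay above every wild-type library for 17.7% of all tested genes. On the other side of Mpo, Tspoap1 rose by 1.41 (SE 0.31, edgeR, adjusted p = 0.0121), from 5.37 to 9.17 CPM in wild type to 14.0 to 26.4 CPM in Tnc-/-. Beside Gfi1, Evi5 was lower in Tnc-/- at -0.73 (SE 0.19, edgeR, adjusted p = 0.0221), with wild-type library 1 at 45.7 CPM, near the Tnc-/- range of 36.5 to 43.3, and wild-type libraries 2 and 3 at 80.1 and 73.4 CPM.

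Other gene lists were read next, and their counts stand against 10.3% of all tested genes called higher and 18.7% called lower in the same fit. Other proteins of the primary granule and of its making came first. Of the 14 genes in this list, 13 were tested (Bpi, the bactericidal protein gene, was too low), 3 were called higher and none lower, and the median log2 fold change was 0.40. The 3 were Unc13d, whose protein primes granules for release, at 0.91 (SE 0.17, edgeR, adjusted p = 0.00877), Hk3, a hexokinase of myeloid cells, at 1.50 (SE 0.30, adjusted p = 0.00993), and Fcnb, a ficolin of immature granulocytes, at 1.51 (SE 0.37, adjusted p = 0.0181). Fcnb was at 38.5, 12.3 and 20.2 CPM in wild type and 89.9, 50.4, 67.8 and 61.9 CPM in Tnc-/-. Hk3 was at 50.3, 24.9 and 24.2 CPM in wild type and 121, 71.5, 102 and 81.4 CPM in Tnc-/-. Both showed wild-type library 1 as the highest of its group and Tnc-/- library 1 as the highest of all, like the 7 genes above. Serpinb1a, which encodes an inhibitor of elastase, cathepsin G and proteinase 3, was at 0.68 (SE 0.24) and did not pass the test (edgeR, adjusted p = 0.0602). Ctsc, whose product activates the granule proteases, was at 101 to 143 CPM in all 7 libraries and at -0.16 on the log2 scale (SE 0.14; adjusted p = 0.415 in edgeR).

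Regulators and receptors of granulocyte production gave 6 called higher and 1 lower of 19 tested, with a median of 0.32. Csf3r, the receptor for granulocyte colony-stimulating factor, was at 84.0, 30.2 and 48.96 CPM in wild type and 190, 114, 164 and 135 CPM in Tnc-/-, which is 1.47 on the log2 scale (SE 0.33; adjusted p = 0.0139 in edgeR). Its ligand gene Csf3 was at 0 in all wild-type libraries and at no more than 0.209 CPM in Tnc-/- and was not tested. Csf2rb, the shared beta chain of the GM-CSF, IL-3 and IL-5 receptors, rose by 0.74 (SE 0.18, edgeR, adjusted p = 0.0177), and Spi1, which encodes PU.1, by 0.79 (SE 0.22, adjusted p = 0.0283). Irf8, Hax1 and Id1 were the other 3 called higher. Lef1, a factor of the Wnt pathway that takes part in granulocyte maturation, was called lower at -1.85 (SE 0.46, edgeR, adjusted p = 0.0188). Its values were 7.14, 34.3 and 23.7 CPM in wild type and 7.69, 5.63, 5.60 and 5.02 CPM in Tnc-/-, so wild-type library 1 was within the Tnc-/- range and the difference lay in wild-type libraries 2 and 3. Cebpa, the C/EBP factor that precedes Cebpe, was at 0.37 (SE 0.17, edgeR, adjusted p = 0.132), and Myb at 0.69 (SE 0.30, adjusted p = 0.109).

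Genes of late granules and mature neutrophils, the stages that follow, were called higher in 13 of 17 tested, with none lower and a median of 1.13. They included Camp, the cathelicidin gene, at 1.41 (SE 0.28, edgeR, adjusted p = 0.00946), Padi4, which citrullinates histones, at 1.32 (SE 0.28, adjusted p = 0.0110), Cd177, a surface protein of neutrophils that binds proteinase 3, at 1.42 (SE 0.32, adjusted p = 0.0140), and Cebpd, a C/EBP factor of late stages, at 0.77 (SE 0.18, adjusted p = 0.0147). The summed late list was at 6846, 3395 and 3890 CPM in wild type and 12429, 7451, 10093 and 8888 CPM in Tnc-/-. With this TMM scaling the sums did not overlap between the genotypes, whereas with library totals wild-type library 1 stood at 6894 CPM and Tnc-/- library 2 just below it at 6849 CPM. The log2 ratio of the primary granule sum to the late sum was -3.16, -3.39 and -3.65 in wild type and -3.27, -3.36, -3.56 and -3.41 in Tnc-/-. Both groups had a mean of -3.40, with an SD of 0.24 in wild type (n = 3) and 0.12 in Tnc-/- (n = 4), so the balance between early and late genes differed by less than the spread between libraries. Itgam, the integrin gene of mature myeloid cells, was listed at 0 in all 7 libraries.

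The calls in these 3 lists rested on the same libraries. Without wild-type library 1, 10 of 14 other granule genes, 12 of 19 regulators and 16 of 17 late genes were called higher, with 1, 3 and 0 lower, where 24.3% of all genes in that fit were called higher and 39.9% lower. Without wild-type libraries 2 and 3, none of the 3 lists had a call, at medians of 0.19, 0.25 and 0.58, and none had one with the background covariate, at -0.066, 0.15 and 0.32. At an unadjusted p under 0.05 there were 2, 1 and 0 higher and 1, 2 and 0 lower with the covariate (edgeR). Only for the fit to all libraries was the share of all genes at that p worked out (17.5% higher). Such counts from other fits, here and below, therefore have no share beside them. In the fit to all libraries DESeq2 called 4, 6 and 14 higher and 1, 1 and 0 lower, where it called 10.3% of all genes higher. Limma voom called 3, 1 and 3 higher and none lower, where it called 3.97% of all genes higher. The voom medians were 0.48, 0.31 and 1.21, close to those of edgeR. These fits to the lists were added after the data had been seen.

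Markers of other marrow cells were read in the same libraries, and the counts from the fit to all of them stand against the same shares of all genes. Erythroid markers were called higher in 5 of 7 tested and summed to 5101, 2513 and 3253 CPM in wild type and 6519 to 12469 CPM in Tnc-/-, with Alas2 listed at 0 throughout. The globin gene Hba-a1 made up most of this sum in every library, at 4028, 1996 and 2548 CPM in wild type and 5029 to 9651 CPM in Tnc-/-. Megakaryocyte markers were called higher in 4 of 5, at 220 to 473 CPM in wild type and 505 to 890 CPM in Tnc-/-, and genes of dividing cells in 5 of 8, at 239 to 496 and 592 to 1020 CPM. In all 3 lists wild-type library 1 was the highest of its group and Tnc-/- library 1 the highest of all. With library totals the megakaryocyte sums overlapped, at 477 CPM in wild-type library 1 and 464 to 853 CPM in Tnc-/-, and the other pair of lists did not. The calls in these 3 lists depended on the wild-type libraries in use. Erythroid, megakaryocyte and dividing cell markers had 7, 5 and 8 called higher without wild-type library 1 (24.3% of all genes in that fit), but 1, 0 and 0 without wild-type libraries 2 and 3 (2.53% of all genes; edgeR, 3, 3 and 4 at an unadjusted p under 0.05). With the background covariate, where 1.10% of all genes were called higher, none was called (edgeR; 1, 0 and 1 at an unadjusted p under 0.05), and in the fit to all libraries DESeq2 called 6, 5 and 6 and limma voom 2, 2 and 1. B cell precursor markers had no call among 4 tested with edgeR, DESeq2 or limma voom (0 at an unadjusted p under 0.05), at 44.2 to 70.0 and 64.1 to 133 CPM, and Rag1 was listed at 0. Without wild-type library 1, 3 of these 4 were called higher, at a median of 0.82. Eosinophil markers, whose granules form beside those of neutrophils in the marrow, gave 1 higher (Prg2) and 1 lower (Il5ra) of 6, at 34.6 to 113 and 128 to 245 CPM, and 4 higher and 1 lower without wild-type library 1. The eosinophil list had no call without wild-type libraries 2 and 3 or with the background covariate (edgeR; 2 and 0 higher, 0 lower, at an unadjusted p under 0.05). B cell precursors had none in those fits either (edgeR; 0 at an unadjusted p under 0.05).

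Markers of cells that could carry some of the same transcripts were also read, and most of these counts lay near the share over all genes. Mast cell markers, relevant because mast cells also store a cathepsin G, were called higher in 1 of 6 (Hdc; 3 of 6 without wild-type library 1, 1 without wild-type libraries 2 and 3, and 0 with the background covariate, where 1 had an unadjusted p under 0.05 in edgeR), at 32.9 to 51.0 CPM in wild type and 62.7 to 78.0 CPM in Tnc-/-. Hdc alone was at 11.7 to 17.1 CPM in wild type and 29.0 to 37.9 CPM in Tnc-/-, so it weighed heavily in the mast cell sums. Cpa3, Cma1, Tpsb2 and Ms4a2 overlapped between the genotypes and Mcpt4 did not. Basophil markers had no call among 3 (edgeR, 1 at an unadjusted p under 0.05, 1 called with DESeq2 and 0 with limma voom), at 25.2 to 39.8 and 32.3 to 74.5 CPM. Monocyte and macrophage markers were called higher in 1 of 8 (Ly6c2, a marker of young monocytes), at 667 to 1162 and 1005 to 1215 CPM, with a median log2 fold change of 0.24. Their direction turned on the wild-type libraries: 5 of 8 were called higher without wild-type library 1 (median 0.66), while without wild-type libraries 2 and 3 only 2 of 8 were above 0 (median -0.23). With the background covariate the median was -0.41, with no call in either of the last pair of fits (edgeR; 2 and 4 lower and 0 higher at an unadjusted p under 0.05). Of the joint's tissues, skeletal muscle gave 1 higher of 5 (Myh4), but all 5 had a log2 fold change above 0 and their sums did not overlap, at 18296 to 24021 CPM in wild type and 25843 to 38077 CPM in Tnc-/-. Without wild-type library 1, 4 of the 5 muscle genes were called higher, and 0 without wild-type libraries 2 and 3 or with the background covariate (edgeR; 1 in each at an unadjusted p under 0.05). The median of the 5 was 0.51 in the fit to all libraries and 0.37 and 0.38 in the last pair of fits. Bone gave 1 higher of 5, fat 1 of 4 and tendon 1 lower (Mkx) of 4. Cartilage gave 0 of 4 with edgeR, DESeq2 and limma voom (0 at an unadjusted p under 0.05). The summed bone markers overlapped, at 820 to 1244 CPM in wild type and 1011 to 1246 CPM in Tnc-/-. The part of marrow content or of any of these cells in the differences above was not tested.

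**Figure D4:**
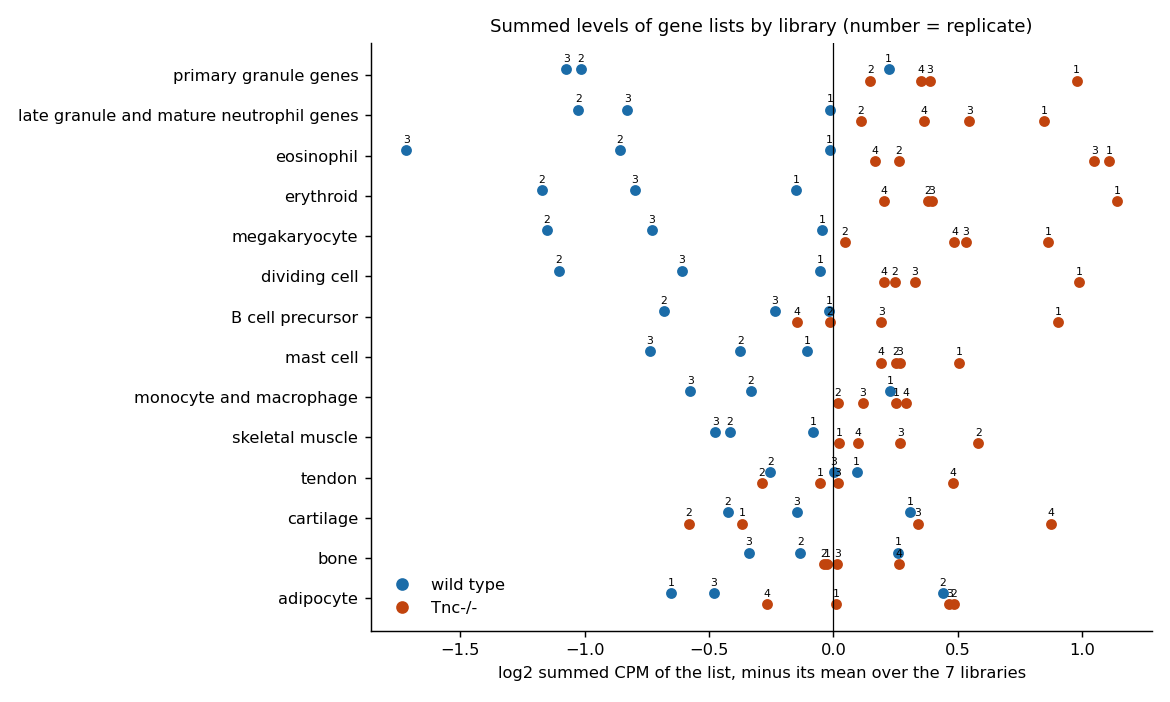
Log2 summed CPM of each gene list minus its mean over the 7 libraries (horizontal axis), 1 row per list, with replicate numbers above the points. In the primary granule row wild-type library 1 lies at 0.22 and Tnc-/- library 2 at 0.15, while wild-type libraries 2 and 3 lie at -1.02 and -1.07; with this TMM scaling the late granule, erythroid, megakaryocyte and dividing cell rows, among others, keep all Tnc-/- libraries to the right of wild type.

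Among 12341 other genes at a mean level of 5 CPM or more, those most like the 7 in their log2 level were named by Pearson r over the 7 libraries, which share the genotype difference and the depth of each library. They were Kdm3b (0.997), Slc25a39 (0.997), Mcm7 (0.997), Kif4 (0.996), D17H6S56E-5 (0.996), Psd4 (0.995), Coro1a (0.995), Rfc5 (0.993), P2rx1 (0.993) and Fcer1g (0.993). Mcm7 encodes a subunit of the replicative helicase, Rfc5 a subunit of the clamp loader and Kif4 a mitotic kinesin, while Coro1a and Fcer1g encode an actin regulator and a receptor signalling chain of blood cells. Mcm7 was at 83.8, 37.7 and 36.6 CPM in wild type and 150.2, 85.5, 97.7 and 95.2 CPM in Tnc-/-. Wild-type libraries 2 and 3 were close together and wild-type library 1 lay just under Tnc-/- library 2.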

How the data were processed

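The authors deposited a file of whole-number gene counts for each library; the submitters' processing notes name FastQC 0.11.9, HISAT2 2.2.1, HTSeq 2.0.2, DESeq2 1.38.3 and the builds GRCm39 and mm39. The strand setting and the annotation release are not given in the sources used here. Poly(A) capture and a NEBNext Ultra kit were used, per the labels' protocols.

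The wild-type files listed 56980 identifiers without symbols and the Tnc-/- files 56941 with symbols; 126 and 87 were in 1 set alone. Rows that name no gene held 30.1 to 32.7% of the counts in the Tnc-/- files and were left out. Tests used edgeR 4.0.16 in R 4.3.3 on all 56854 shared identifiers (filterByExpr, TMM, robust quasi-likelihood F test, genotype as the 1 term, Benjamini-Hochberg adjustment over 17791 genes, threshold 0.05). Standard errors are the size of the log2 fold change over the root of F. P-values measure the spread between libraries, 1 per mouse by the series text. The scripts were checked on simulated counts.

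The members, the other gene lists and the alternatives were chosen with earlier results of these data known. All 7 members are named; from the lists of other granule proteins, regulators and late genes, the 4 tested genes with the smallest p and any called lower are named. Marker lists are given as counts and sums; the marker genes named from them, Ctsc, Csf3, Cebpa, Myb, Irf8, Hax1, Id1 and the genes listed at 0 were picked after their values were seen, as were Mcm7 and the neighbouring genes. The 10 most alike genes were ranked by Pearson r of log2(CPM + 0.5). The background covariate is the log2 CPM of 2010 olfactory and vomeronasal receptor genes. Exon lengths, spans and overlaps came from GENCODE M21 (GRCm38), which held 91.4% of the identifiers; since its build differs from the authors', no gene coordinates of it are given. Promoters came from RefSeq (GRCm38.p6). Alternatives were DESeq2 1.42.0 with either adjustment, voom in limma 3.58.1, other scalings and filters, thinning, left-out libraries, the replicate block, the covariate, and genes spanning at most 10 or, added later, 30 kb.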

Additional observations from a re-analysis of the deposited data

Results flagged for a closer look

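Dixon's test asked of 31 values whether 1 of the 4 Tnc-/- samples lay far from the rest; it did for 3, and about 1 in 20 would by chance. Tnc-/- library 1 was high in the summed erythroid markers, mostly Hba-a1, at 12469 CPM against 6519 to 7448 CPM in Tnc-/- libraries 2 to 4. It was also high in the summed genes of dividing cells, at 1020 CPM (1019.6) against 592 to 645 CPM. The same library was the highest of all 7 in each of the primary granule genes, none of which had a library past Dixon's critical value. Tnc-/- library 4 was high in the summed bone markers, at 1246 CPM against 1011 to 1051 CPM.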

How the results depend on the processing

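All 7 genes kept a higher mean in Tnc-/- in every fit run but the one with the background covariate, which gave -0.26 for Elane, -0.12 for Mpo, -0.32 for Ctsg, -0.15 for Ms4a3, -0.51 for Gfi1, 0.22 for Prtn3 (edgeR, adjusted p = 0.799) and 0.77 for Cebpe (0.286). Leaving out 1 library at a time gave log2 fold changes of 0.55 to 1.44 for Elane, 0.77 to 1.67 for Mpo, 0.91 to 1.74 for Prtn3, 0.64 to 1.63 for Ctsg, 0.70 to 1.58 for Ms4a3, 1.38 to 2.21 for Cebpe and 0.77 to 2.32 for Gfi1. The highest of each was without wild-type library 1, the 1 left-out library that brought Elane, Mpo, Ctsg, Ms4a3 and Gfi1 past the threshold. The ratio of the summed genes ran from 1.71 to 2.92, and from 1.92 to 2.10 without Mpo, Elane, Prtn3 or Ctsg. The members called numbered 1 to 7 over the left-out libraries, 1 without wild-type libraries 2 and 3 (Prtn3 at 0.50), 1 with limma voom (Prtn3 at 1.23, adjusted p = 0.0634), 0 with DESeq2 and Bonferroni adjustment (Prtn3 at 1.13, Cebpe at 1.63), 0 with the covariate and 1 in genes spanning at most 10 kb (Prtn3 at 0.91, adjusted p = 0.0517), where Mpo and Ms4a3 could not be fitted because they span more. DESeq2 called Mpo (0.96). These member counts are to be read against all genes called higher in the same fits. Those numbered from 592 of 18116 without wild-type library 3 to 5335 of 21989 without wild-type library 1. They were 707 of 17791 with limma voom, 304 of 24002 with Bonferroni adjustment, 195 of 17791 with the covariate and 206 of 4662 at 10 kb.

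The genes called in all, 5159, numbered 9423 with DESeq2, 1943 with DESeq2 and Bonferroni adjustment, 973 with limma voom, 825 without wild-type libraries 2 and 3, 399 with the covariate, 629 and 1995 in genes spanning at most 10 and 30 kb, and 2229 to 14113 over the left-out libraries. Of these calls 64.5% were lower in Tnc-/-, against 73.8% with DESeq2, 82.7% with library totals and 27.3% with limma voom. Scaling by library totals moved the median over all genes on the log2 scale from -9.0e-04 to -0.24, against which the 7 genes lay at 0.60 to 1.45. Same-numbered samples of the genotypes correlated at -0.0053, 0.10 and -0.0055 in their deviations, and differently numbered ones at -0.10 to 0.064. Such values over all tested genes cannot settle whether samples of equal number share more than the number. With the replicate number as a block over replicates 1 to 3, 1713 genes were called, 768 of 17580 higher, and 6 members, all higher: Elane at 0.94, Mpo at 1.12, Ctsg at 1.06, Ms4a3 at 1.06, Prtn3 and Cebpe. The cause of these shifts was not tested. Gfi1 rested on 21 to 177 counts in wild type.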
